A study of Mus musculus with 22 samples.

Results

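The proteasome subunit genes were the 49 mouse protein-coding genes, of 21887 on chromosomes 1 to 19, X and Y, whose symbol begins with Psm, a letter from a to g and a number. The members were chosen by symbol alone, and they comprise core ring subunits, regulatory particle subunits, activators, the inhibitor Psmf1 and assembly chaperones. The proteasome is the barrel-shaped protease that breaks down ubiquitin-tagged proteins in every cell. Its core particle is a stack of alpha rings, which gate the channel, and beta rings, some of whose subunits cut the substrate. A regulatory particle caps the core with a ring of ATPases that unfold substrates and with non-ATPase subunits that bind and remove ubiquitin. In the intestinal epithelium and elsewhere, interferon induces immunoproteasome subunits, which take the place of standard catalytic subunits and shape the peptides shown by MHC class I.

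Chromatin immunoprecipitation and sequencing (ChIP-seq) had been carried out on small intestinal crypts, the stem cell-bearing pits of the gut epithelium, of C57BL/6 mice, and on the embryonic stem cell (ESC) line E14. The 16 peak lists came from Pcgf6 KO AhCre crypts and WT AhCre crypts (PCGF6, RING1B and H2AK119ub1), Pcgf6 KO Villin crypts and WT Villin crypts (RING1B, H2AK119ub1, CTCF and RAD21), and WT ESC (PCGF6 and RING1B). PCGF6 defines a variant form of Polycomb repressive complex 1 (PRC1) that also holds the DNA-binding proteins MGA, MAX and E2F6. The PRC1 enzyme RING1B attaches ubiquitin to histone H2A, which gives the mark H2AK119ub1. CTCF binds DNA at insulators and loop anchors, where cohesin, whose ring includes RAD21, is often held. Per the series text, Cre was induced with BNF in AhCre mice and with tamoxifen in Villin mice, in male mice 8 to 12 weeks old whose crypts were taken 7 days later. That text describes RNA samples, and whether the ChIP crypts had the same age and interval was not stated. AhCre is a Cre transgene driven by an aryl hydrocarbon-responsive promoter, and the Villin promoter is active in intestinal epithelium. Whether WT mice carried Cre or received the inducer, and how many mice gave each library, was not stated. With 1 library in each group there is no replicate error, and no difference between genotypes was tested.

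The lists held between 1662 and 32651 peaks, and no read counts, which leaves the depth unknown. Each peak carries a score of 10 or more (−log10 of a p or a q value; the sources do not say which), computed by the authors' peak caller for that library and not scaled between libraries. A gene counted as occupied if any peak reached the 1 kb on either side of an end of its annotated span, and its score was that of its highest such peak. A WT-only gene had a WT peak there, no KO peak there, and no WT peak there that overlapped a KO peak. At the targeted gene Pcgf6, a PCGF6 peak (score 20.8) was listed in WT AhCre crypts and none in KO crypts. Because Pcgf6 was the targeted gene, a PCGF6 peak listed in KO crypts does not show that the protein was there. The source of such peaks was not tested, and for KO crypts PCGF6 at a gene means below only a listed peak. The lists hold no RNA levels, so the labelled cell types could be checked only through Polycomb occupancy. RING1B lay at 6 of 10 crypt epithelium markers, such as Cdx2, and at 0 of 6 ESC markers in ESC, and H2AK119ub1 lay at 3 of 10 crypt markers and 2 of 6 ESC markers in each genotype of AhCre crypts. At 6 markers of blood, vessel and mesenchymal cells, H2AK119ub1 lay at 2 in each genotype.

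In WT AhCre crypts PCGF6 lay at most proteasome genes at the deposited threshold, while RING1B and H2AK119ub1 lay at very few. PCGF6 peaks were listed at 14 of 49 proteasome genes in KO AhCre crypts and at 37 in WT AhCre crypts, against backgrounds of 13.7% and 39.9% of all genes. As shares of the proteasome genes these counts are 28.6% in KO and 75.5% in WT. Counting only scores of 20 or more, PCGF6 lay at 4 genes in KO and 18 in WT (8.16% and 36.7%, against 4.40% and 21.5% of all genes). RING1B was listed at 1 gene in each genotype of AhCre crypts (4.89% of all genes in KO, 7.74% in WT). In Villin crypts it was listed at 1 gene in KO and 3 in WT (7.61% and 14.2% of all genes). H2AK119ub1 was listed at 2 genes in KO and 0 in WT AhCre crypts (17.7% and 16% of all genes) and at 0 in both genotypes of Villin crypts (8.85% and 10.4% of all genes). CTCF was listed at 18 genes in each genotype of Villin crypts (23.2% of all genes in KO, 25.5% in WT), and RAD21 at 5 in KO and 13 in WT (14% and 22.2% of all genes). In ESC, PCGF6 was listed at 9 proteasome genes (22.7% of all genes) and RING1B at 4 (17.8% of all genes). Of the 37 genes with PCGF6 in WT AhCre crypts, 35 had neither RING1B nor H2AK119ub1 in any crypt list. That share was not computed over all genes. Among the 37, 2.70% had RING1B in WT AhCre crypts and 5.41% in WT Villin crypts. Over all genes with PCGF6 in WT AhCre crypts, these shares were 12.1% and 25.8%. A peak of some kind was present at 41 of the 49 genes, and Psma7 had peaks in 9 lists, more than any other proteasome gene. The share of all genes with a peak in any list was not computed.

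**Figure D1:**
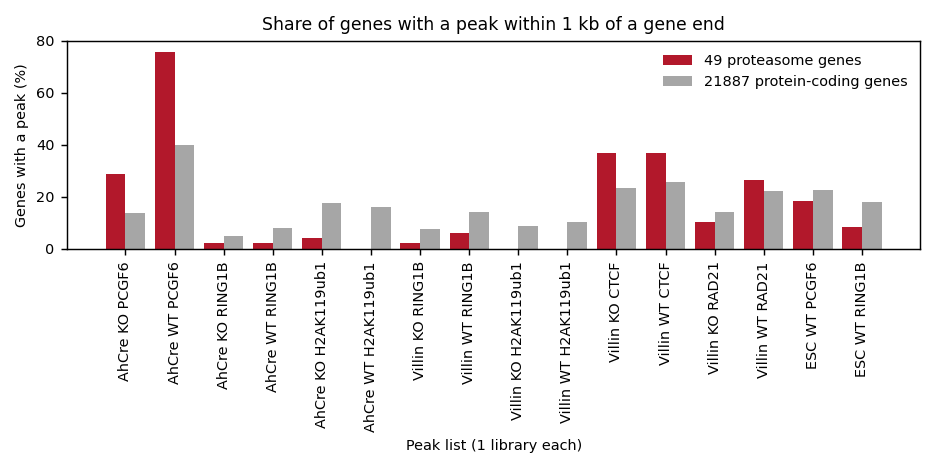
Percentage of the 49 proteasome genes (red) and of all 21887 protein-coding genes (grey) with a peak within 1 kb of a gene end, for each of the 16 lists of 1 library each. The red bar is the taller of the pair for PCGF6 in AhCre crypts (28.6% in KO and 75.5% in WT), for CTCF (36.7% in both) and for WT RAD21 (26.5%), and the shorter for KO RAD21 (10.2%), for PCGF6 in ESC (18.4%) and for RING1B and H2AK119ub1 in every list.

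**Figure D2:**
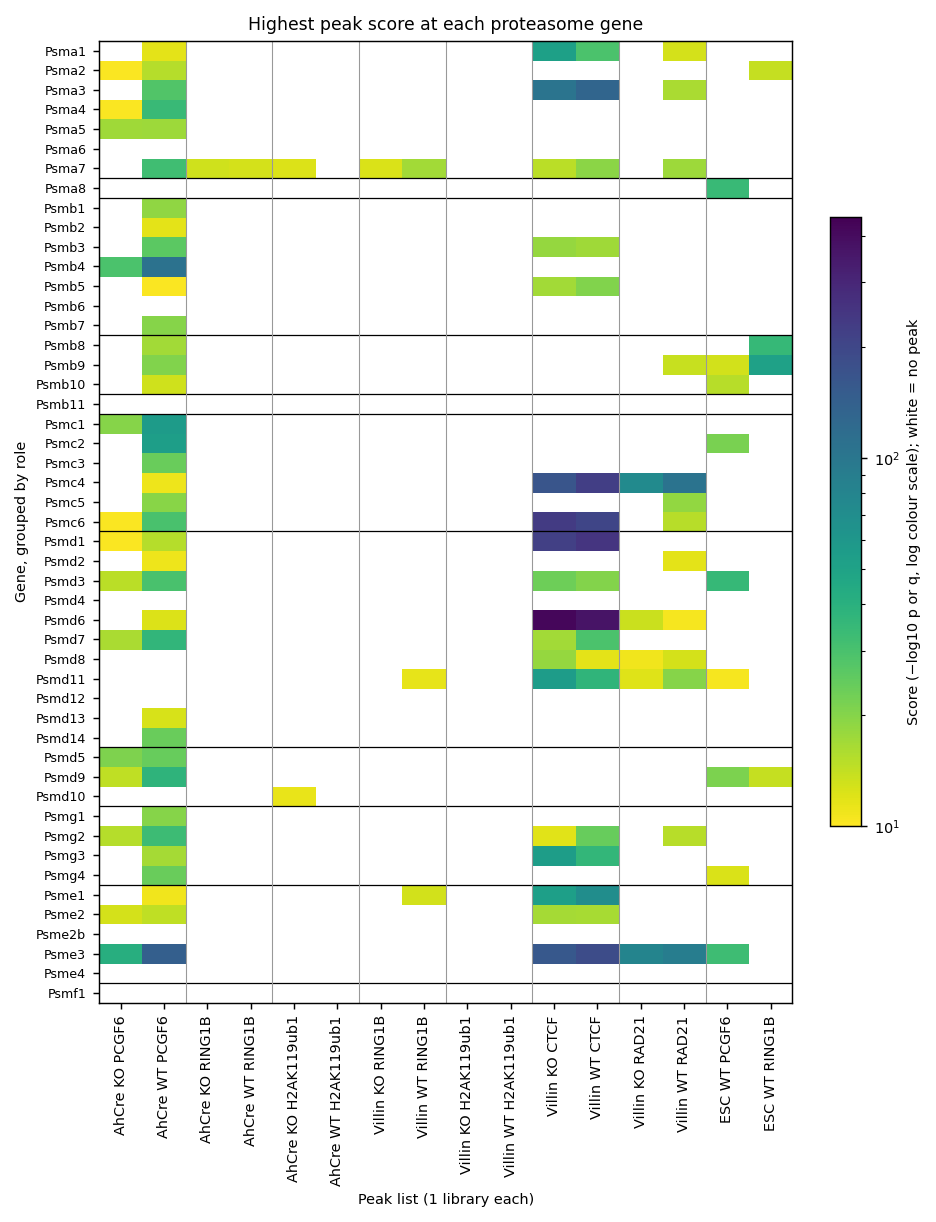
Highest peak score (−log10 of p or q, logarithmic colour scale) of each proteasome gene (rows, grouped by role, black lines between roles) in each list (columns, KO left of WT); white means no peak. PCGF6, CTCF and RAD21 columns are filled at many genes, RING1B and H2AK119ub1 columns at 4 genes in crypts.

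Other housekeeping gene families had PCGF6 at between 70.5% and 90.2% of their genes in WT AhCre crypts. In KO and WT AhCre crypts, PCGF6 was listed at 36 and 74 of 82 cytosolic ribosomal protein genes, at 21 and 55 of 78 mitochondrial ribosomal protein genes, and at 17 and 60 of 80 respiratory chain genes. Their WT shares were 90.2%, 70.5% and 75.0%, against 75.5% of proteasome genes. H2AK119ub1 in WT AhCre crypts was listed at 3, 2 and 2 genes of these families, against 0 proteasome genes. PCGF6 peaks also varied with promoter composition across all genes. Among the 8896 protein-coding genes with a CpG observed to expected ratio of 0.6 or more in the promoter window, 63.4% had a WT PCGF6 peak, against 16.9% of the 8596 others. Of the 41 proteasome genes with a promoter window in the RefSeq table, 29 were CpG-rich by this limit, which was set after seeing the data, and 22 of them (75.9%) had PCGF6. The remaining 12 were below it, and 8 of them had PCGF6.

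The highest PCGF6 scores belonged to an activator, a beta ring subunit and ATPases of the regulatory particle. Psme3 encodes a nuclear activator that binds the core particle without needing ATP, and its PCGF6 score was 41.6 in KO and 143 in WT AhCre crypts. The peaks spanned chr11:101315615-101316417 in KO and chr11:101315468-101316839 in WT, both over the start site. Psmb4, a non-catalytic beta ring subunit, had 29.2 in KO and 107 in WT. Psmc1, an ATPase of the regulatory particle, had 20.03 in KO and 55.8 in WT. Psmc2, another ATPase, had no KO peak and 53.3 in WT, the highest WT-only score of the family. The WT score of Psmc2, the lowest of these 4, was at percentile 90.1 of all WT PCGF6 peaks, and Psmd9, the next gene, had 37.8.

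The promoter windows of these 4 genes, and of Psma7 and Psmd6, which carry the RING1B and strongest CTCF peaks described below, are shown. PCGF6 peaks of WT AhCre crypts covered between 298 and all 300 bases of each window. Each runs from 250 bases before to 50 bases after the start of transcription, 5′ to 3′ on the gene's strand, from RefSeq on GRCm38.p6, whose primary chromosomes are those of mm10. Capitals mark matches on either strand to CACGTG (an E-box, bound by MGA and MAX of the PCGF6 complex), ACTTCCG (the core of ETS factor sites) or AGGNGGC (part of the CTCF core). The ETS core was added after the windows had been read. The windows lie at chr11:101315963-101316262 (Psme3, plus strand), chr3:94886909-94887208 (Psmb4, minus), chr12:100109952-100110251 (Psmc1, plus), chr5:21785025-21785324 (Psmc2, plus), chr2:180042415-180042714 (Psma7, minus) and chr14:14120896-14121195 (Psmd6, minus).
Psme3: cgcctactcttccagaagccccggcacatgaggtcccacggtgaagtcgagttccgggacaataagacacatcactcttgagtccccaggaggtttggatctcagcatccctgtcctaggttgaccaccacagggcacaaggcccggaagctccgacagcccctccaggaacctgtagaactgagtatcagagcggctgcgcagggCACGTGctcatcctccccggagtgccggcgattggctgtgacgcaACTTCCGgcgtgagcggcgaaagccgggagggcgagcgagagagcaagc
Psmb4: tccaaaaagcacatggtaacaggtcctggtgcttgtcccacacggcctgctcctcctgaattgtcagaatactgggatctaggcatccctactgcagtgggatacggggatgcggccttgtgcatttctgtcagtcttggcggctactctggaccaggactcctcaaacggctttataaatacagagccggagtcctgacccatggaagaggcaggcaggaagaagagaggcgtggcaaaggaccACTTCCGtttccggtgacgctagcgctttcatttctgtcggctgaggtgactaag
Psmc1: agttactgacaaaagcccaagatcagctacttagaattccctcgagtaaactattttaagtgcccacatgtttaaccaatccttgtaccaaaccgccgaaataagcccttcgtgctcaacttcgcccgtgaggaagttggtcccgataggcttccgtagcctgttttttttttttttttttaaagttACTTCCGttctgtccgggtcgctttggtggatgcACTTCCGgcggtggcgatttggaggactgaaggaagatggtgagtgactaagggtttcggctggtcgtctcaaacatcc
Psmc2: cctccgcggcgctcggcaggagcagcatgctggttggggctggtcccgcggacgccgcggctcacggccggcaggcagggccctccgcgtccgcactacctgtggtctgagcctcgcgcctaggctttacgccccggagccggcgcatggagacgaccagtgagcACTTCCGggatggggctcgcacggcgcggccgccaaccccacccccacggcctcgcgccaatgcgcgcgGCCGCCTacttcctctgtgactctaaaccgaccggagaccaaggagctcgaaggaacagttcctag
Psma7: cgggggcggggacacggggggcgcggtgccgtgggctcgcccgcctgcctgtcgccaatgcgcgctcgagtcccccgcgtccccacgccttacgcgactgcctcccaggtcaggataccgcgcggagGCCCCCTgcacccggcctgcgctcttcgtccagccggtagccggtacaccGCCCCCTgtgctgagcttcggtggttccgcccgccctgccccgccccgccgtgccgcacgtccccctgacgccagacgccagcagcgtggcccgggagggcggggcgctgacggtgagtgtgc
Psmd6: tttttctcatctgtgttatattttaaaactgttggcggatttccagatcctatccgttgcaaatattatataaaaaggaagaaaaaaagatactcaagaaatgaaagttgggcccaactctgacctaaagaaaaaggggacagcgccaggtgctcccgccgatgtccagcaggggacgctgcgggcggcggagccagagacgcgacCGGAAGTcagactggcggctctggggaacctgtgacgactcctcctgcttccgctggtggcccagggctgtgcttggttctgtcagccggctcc

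An E-box lay in the Psme3 window, 44 bases before the start, and ETS cores lay in those of Psme3, Psmb4, Psmc1, Psmc2 and Psmd6. In the Psma7 window the matches were both to the CTCF core part. The Psmd6 window had no match to that part, which does not show that it lacks a CTCF site. Over the 41 proteasome genes with a window, the E-box was present in 4 (9.76%), against 8.91% of 17492 protein-coding genes. These were Psma4, Psmb10, Psmd9 and Psme3, and all 4 had WT PCGF6, as did 60.4% of all genes with the E-box and 73.2% of the 41 proteasome genes with a window. The E2F site GGCGGGAA, searched because E2F6 is a subunit of the same complex, was in 2 windows (4.88%, Psma1 and Psmc4) against 3.28% of genes. The ETS core was in 14 windows (34.1%) against 9.39% of genes, and 10 of the 30 windows of genes with WT PCGF6 and 4 of the 11 without it had it. These 14 include the printed windows with that core, which had been read before it was chosen, so the share is not independent of the choice. The antioxidant response element core TGACNNNGC, bound by the proteasome regulator NFE2L1, was in 6 windows (14.6%) against 14.8% of genes. The YY1 site AAGATGGCG was in 2 windows (4.88%) against 2.14% of genes, and the CTCF core part in 15 (36.6%) against 36.3%. None of these motifs contains another, though adjoining matches can share bases.

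PCGF6 peaks of proteasome genes sat mainly on start sites. Of the 30 genes with a WT peak and a known start site, 26 had a peak that covered it (86.7%, against 75.8% of all genes with a peak), with a median distance from peak centre to start of 171.5 bp, against 258.5 bp for all genes. In KO crypts 7 of 11 did so (63.6%, against 56.8%). The exceptions in WT were Psma3, Psmc6, Psmd14 and Psme1. At Psma3 the counted peak lay at the upstream end of the annotated span, with its centre at -5140 bp from the listed start, and another WT peak (chr12:70973848-70975727, score 30.0) lay over the start itself, outside the windows. Of the 39 WT peaks at proteasome genes, 15 also lay within 1 kb of an end of another gene, so that they cannot be assigned to the proteasome gene alone. Such neighbours were Tbp at Psmb1, the Polycomb gene Pcgf2 at Psmb3 and the peptide transporter gene Tap1 at Psmb8 and Psmb9.

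**Figure D3:**
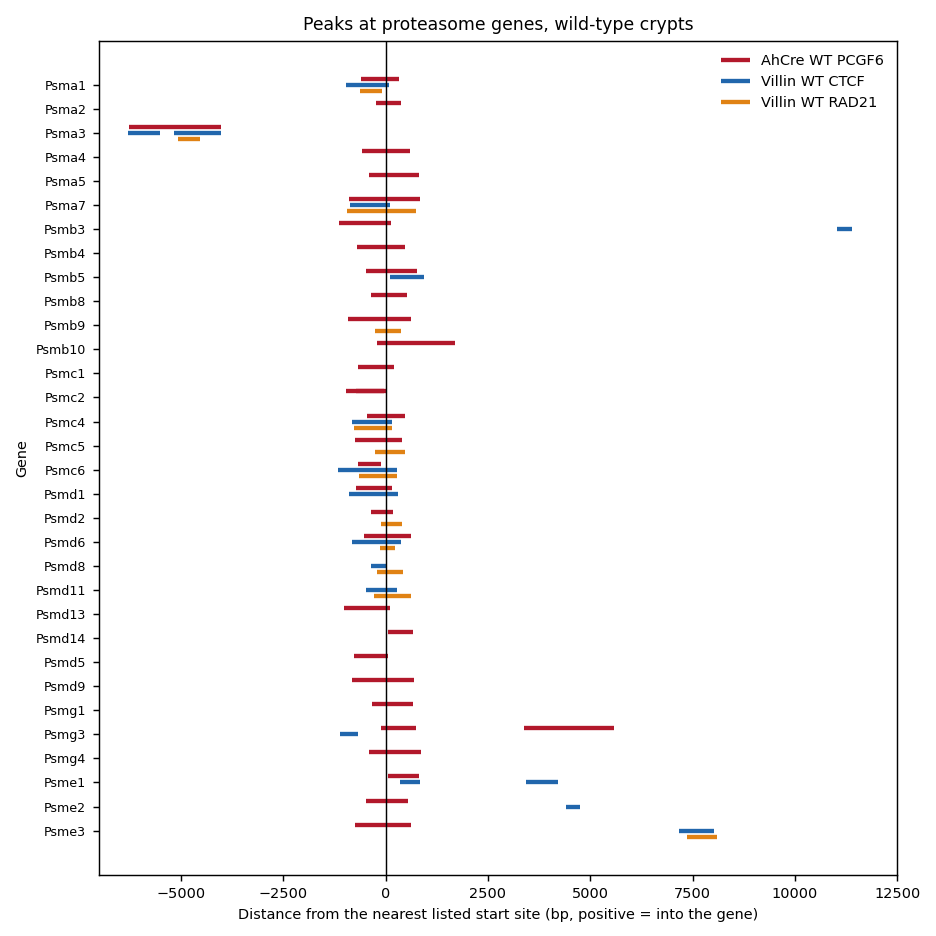
Position of PCGF6 (red), CTCF (blue) and RAD21 (orange) peaks in WT crypts relative to the nearest listed start site, for proteasome genes with such a peak and a promoter window; each bar spans 1 peak and positive distances run into the gene. PCGF6 bars cover position 0 at 26 of 30 genes, while CTCF bars cover it at 8 of 15 genes and miss it at Psma3, Psmb3, Psmb5, Psme1, Psme2, Psme3 and Psmg3.

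Among alpha ring genes, which encode the gate of the core, PCGF6 was listed at 3 of 7 in KO and 6 of 7 in WT AhCre crypts. Psma5 had nearly equal scores (17.2 in KO, 17.5 in WT). Psma4 had 10.3 in KO and 33.9 in WT, and Psma2 had 10.3 and 15.2. Psma7, Psma3 and Psma1 were WT-only, with WT scores of 32.2, 27.9 and 11.8, and Psma6 had no peak. The testis alpha subunit gene Psma8 had no PCGF6 peak in crypts either.

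Beta ring genes were listed in 1 of 7 cases in KO and in 6 of 7 in WT. Apart from Psmb4 these were WT-only: Psmb3 (26.0), Psmb7 (19.8), Psmb1 (18.9), Psmb2 (11.8) and Psmb5 (10.2). Of the standard catalytic subunits, Psmb5 and Psmb7 thus had PCGF6 in WT and Psmb6 did not. The immunoproteasome genes Psmb8, Psmb9 and Psmb10, which encode their interferon-induced replacements, all had a WT-only peak, with WT scores of 17.0, 20.6 and 13.2. Psmb11, the thymus-specific catalytic subunit, had none.

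In the regulatory particle, all 6 ATPase genes had PCGF6 in WT and 2 had it in KO. Besides Psmc1, Psmc6 had 10.3 in KO and 30.0 in WT, and Psmc3 (23.8), Psmc5 (19.7) and Psmc4 (11.1) were WT-only. Of 11 non-ATPase subunit genes, 3 had it in KO and 7 in WT. Psmd7 had 16.3 in KO and 36.7 in WT, Psmd3 had 14.8 and 30.0, and Psmd1, whose product is a scaffold of the base, had 10.3 and 15.2. Psmd14, which encodes the deubiquitinase of the lid, was WT-only at 23.8, as were Psmd13 (12.7), Psmd6 (12.3) and Psmd2 (10.9). The ubiquitin receptor gene Psmd4 and the genes Psmd8, Psmd11 and Psmd12 had no PCGF6 in crypts.

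Assembly chaperones bring the subunits of each particle together. The genes for those of the regulatory particle, Psmd5 (20.9 in KO, 24.3 in WT) and Psmd9 (14.5 in KO, 37.8 in WT), had PCGF6 in both genotypes, and Psmd10 had none. The genes for those of the core had it in 1 of 4 cases in KO and in 4 of 4 in WT. Psmg2 had 15.4 in KO and 33.3 in WT, and Psmg4 (23.8), Psmg1 (19.8) and Psmg3 (16.6) were WT-only. These groups hold 3 and 4 genes, and the contrast was not tested. Among the remaining activators, the interferon-induced Psme2 had 12.7 in KO and 14.3 in WT, and its partner Psme1 was WT-only at 10.9. Psme4, Psme2b and the inhibitor gene Psmf1 had no peak by the window rule. The nearest WT PCGF6 peak for Psmf1 (score 13.4) lay inside the gene, 2597 bp from a gene end, and covered its listed start site. The other 11 genes without a peak had their nearest WT PCGF6 peak between 6232 bp (Psma6) and 347721 bp (Psmd10) away.

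**Figure D4:**
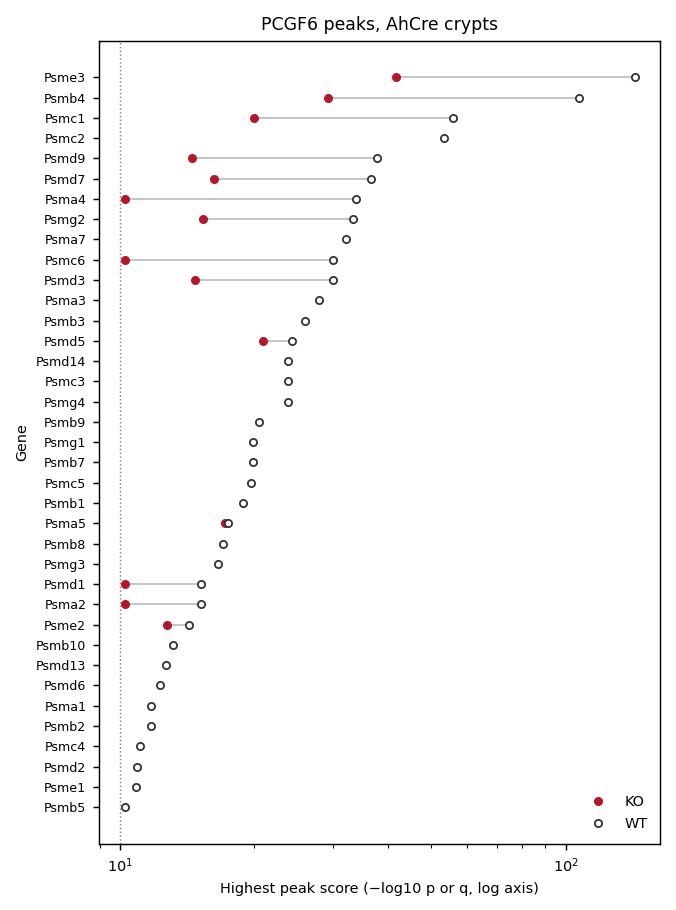
Highest PCGF6 score (−log10 of p or q, log axis) at each proteasome gene with a PCGF6 peak in AhCre crypts, in KO (filled red) and WT (open black), 1 library each; a gene without a red point has no KO peak, and the dotted line is the lowest score in the lists. All 14 red points lie left of their WT point, and Psma4, Psmc6, Psmd1 and Psma2 lie close to the dotted line.

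Taken over the 37 genes with PCGF6 in WT, 23 were WT-only (62.2%, against 64.4% of all genes with a WT peak), 14 had a peak in both genotypes (34% of all genes with a WT peak), and none was KO-only (0.152% of genes without a WT peak). The WT-only share was thus near the background. WT-only genes had a median WT score of 18.9 (17.0 over all such genes), and genes with both peaks 31.7 (39.6 over all). Of the 23 WT-only genes 15 scored under 20 in WT, as did 4 of the 14 with both. The KO score was below the WT score at all 14, as at 98.2% of all such genes, with a median ratio of KO to WT score of 0.452 (0.415 over all). The ratio ran from 0.272 at Psmb4 to 0.984 at Psma5. At Psma2, Psma4, Psmc6 and Psmd1 the KO score was under 11, just above the lowest score listed. When both lists were shortened to their 4779 strongest peaks, the KO list had 14 of these genes and the WT list 12, with 3 WT-only (Psma3, Psma7 and Psmc2) and 5 KO-only, against 859 and 805 over all genes. Lists of equal length cannot show a net change in the number of peaks. The unequal lengths as deposited (4779 peaks in KO, 17163 in WT) moved with the counts, and their part in the difference was not tested.

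RING1B was found at Psma7 in both Cre lines (a gene with RING1B in both genotypes, as were 53.5% of genes with a WT peak in the AhCre line and 45.4% in the Villin line), and Psma7 was the only proteasome gene with RING1B in AhCre crypts. Its scores were 13.3 in KO and 12.8 in WT AhCre crypts, and 12.5 in KO and 17.1 in WT Villin crypts. These peaks overlapped the WT PCGF6 peak (chr2:180041625-180043354), which had no KO counterpart. They also lay within 1 kb of an end of Ss18l1. The WT RING1B peaks of the AhCre line (chr2:180041717-180042399) and the Villin line (chr2:180042551-180043359) did not overlap, and neither covered the start site. With both AhCre lists shortened to 1662 peaks, Psma7 had RING1B in KO only. Its WT score equalled the lowest score kept in the WT list, so only the order of tied peaks left it out. A KO H2AK119ub1 peak of score 12.2 (chr2:180042868-180045241) also reached the Psma7 window in AhCre crypts, and it overlapped a WT H2AK119ub1 peak that lay outside the window. In Villin crypts Psmd11 (11.4) and Psme1 (13.0) had RING1B in WT only, which makes 2 of 3 genes, against 53.7% of all genes with a WT peak. Both peaks lay downstream of the start, and neither was listed in AhCre crypts. With both Villin lists shortened to 2464 peaks, the WT peaks of Psmd11 and Psme1 were no longer included. No proteasome gene was WT-only in AhCre crypts for RING1B (44.7% of genes with a WT peak) and none was KO-only for RING1B in AhCre (0.782% of genes without a WT peak) or Villin crypts (1.31%). Psmd10 was the only gene with an H2AK119ub1 peak that had no WT counterpart (score 11.4 in KO AhCre crypts, 4.26% of genes without a WT peak), and that peak lay 7603 bp into the gene, near its other end. With no WT H2AK119ub1 peak at any proteasome gene, none could be WT-only or have peaks in both genotypes, which was the case, among all genes that had one, for 12.8% and 85.5% in the AhCre line and for 29.3% and 68.4% in the Villin line. None was KO-only in Villin crypts (1.81% of genes without a WT peak).

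CTCF was listed at the same 18 proteasome genes in both genotypes of Villin crypts (85.9% of all genes with a WT peak had both), with no WT-only gene (12% of all genes with a WT peak) and no KO-only gene (1.26% of genes without one). The strongest were Psmd6, a lid subunit gene (419 in KO, 369 in WT), Psmd1 (218 and 250), Psmc6 (232 and 203), Psmc4 (165 and 224), Psme3 (158 and 185) and Psma3 (104 and 131). The KO score was higher at 9 genes, among them Psma1 (51.6 in KO, 29.5 in WT), Psmd11 (54.5 and 37.6) and Psmg3 (54.2 and 36.4). It was lower at the other 9 (50%, against 64.0% of all genes with CTCF in both genotypes). Among these were Psmg2 (11.9 and 24.2), Psmd7 (17.0 and 29.5), Psme1 (52.4 and 69.8) and Psma7 (14.8 and 19.5). The remaining genes, Psmb3, Psmb5, Psmd3, Psmd8 and Psme2, lay between 16.6 and 23.0 in KO and between 11.7 and 20.5 in WT. The median over proteasome genes with CTCF was 52.0 in KO and 32.9 in WT, against 88.5 and 79.8 over all genes with CTCF. Gene by gene, the median ratio of KO to WT score was 0.941 (0.920 over all genes with CTCF in both genotypes). Of 15 genes with a known start site, a CTCF peak covered it in 7 in KO and 8 in WT (46.7% and 53.3%, against 38.0% and 42.5% over all genes with CTCF). At Psme3, Psme2 and Psmb3 CTCF lay at the other end of the gene from PCGF6. PCGF6 in WT AhCre crypts and CTCF in WT Villin crypts occurred together at 16 genes, which is 43.2% of the proteasome genes with PCGF6 and 88.9% of those with CTCF (42.9% and 67.2% over all genes), and their peaks overlapped at 12 of them (at 3115 of 3751 such genes over all).

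RAD21 was listed at fewer proteasome genes in KO than in WT Villin crypts, while CTCF was listed at the same genes in both. The 8 WT-only genes were Psmc5 (18.6), Psma7 (17.4), Psma3 (16.2), Psmc6 (15.1), Psmg2 (15.1), Psmb9 (13.7), Psma1 (12.8) and Psmd2 (11.7). They make 61.5% of the 13 genes with a WT peak, against 41.1% of all genes with one. The 5 genes with RAD21 in both genotypes were Psmc4 (72.9 in KO, 105 in WT), Psme3 (81.2 and 89.0), Psmd11 (12.0 and 19.9), Psmd8 (10.8 and 12.8) and Psmd6 (13.48 and 10.5). Over all genes with a WT peak, 56.9% had RAD21 in both, and no proteasome gene was KO-only (1.62% of genes without a WT peak). Of the 8 WT-only genes 5 also had an overlapping CTCF peak, and Psmc5, Psmd2 and Psmb9 did not, whereas CTCF overlapped RAD21 at all 5 genes with RAD21 in both. Over all genes these shares were 42.0% of WT-only genes and 88.3% of genes with both. The WT RAD21 peak overlapped a WT AhCre PCGF6 peak at 8 of 8 WT-only genes (76.7% over all genes) and at 2 of 5 genes with both (64.3% over all genes). All 8 WT-only scores were under 20. With both lists shortened to 17762 peaks, 5 of these genes were WT-only (Psma3, Psma7, Psmc5, Psmc6 and Psmg2) and Psmd6 and Psmd8 were KO-only, against 1016 WT-only and 491 KO-only over all genes.

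**Figure D5:**
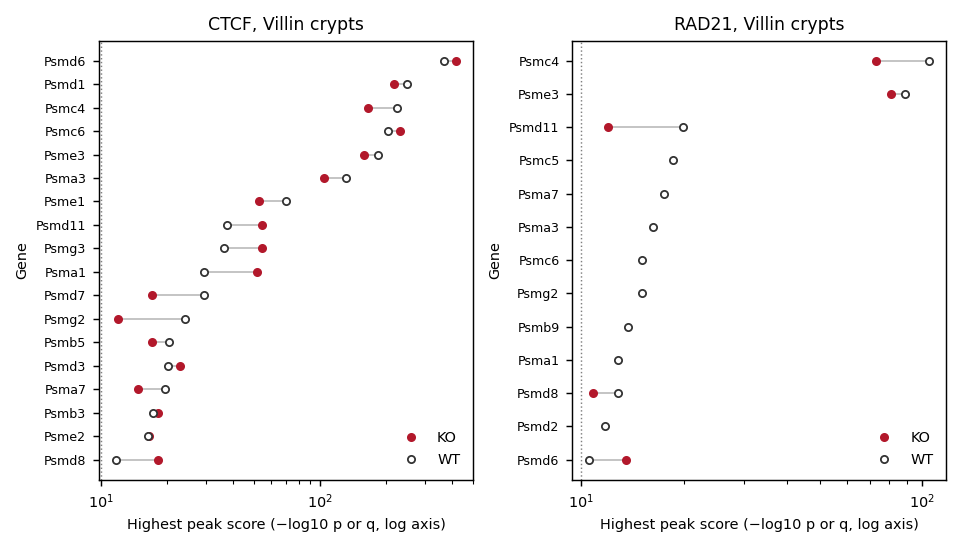
Highest CTCF (left panel) and RAD21 (right panel) score (−log10 of p or q, log axes) at each proteasome gene with a peak in Villin crypts, in KO (filled red) and WT (open black), 1 library each; the dotted line is the lowest score in the lists. All 18 CTCF genes have both points, while 8 of 13 RAD21 genes have a WT point only, at scores from 11.7 to 18.6.

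The genes occupied in crypts and in ESC differed in number and partly in identity. PCGF6 was listed at 37 proteasome genes in crypts (WT AhCre) and 9 in ESC, with 7 in common, which is 18.9% of the crypt genes and 77.8% of the ESC genes (39.6% and 69.7% over all genes). The 7 were Psmd3 (30.0 in crypts, 35.0 in ESC), Psme3 (143 and 32.8), Psmc2 (53.3 and 21.4), Psmd9 (37.8 and 21.1), Psmb10 (13.2 and 15.0), Psmb9 (20.6 and 13.0) and Psmg4 (23.8 and 12.5). Psma8, the testis alpha subunit gene (score 33.9), and Psmd11 (10.5) had PCGF6 in ESC and not in crypts. Psmb4 and Psmc1, among the 4 strongest in crypts, had none in ESC. With both lists shortened to 7850 peaks, 15 genes in place of 30 had PCGF6 in crypts and not in ESC. The same count was not made over all genes.

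RING1B in ESC lay at Psmb9 (50.7), Psmb8 (35.0), Psma2 (13.99) and Psmd9 (13.99), none of which had RING1B in crypts, and none of the 3 crypt genes with RING1B had it in ESC. Over all genes, 64.7% of those with RING1B in WT AhCre crypts and 53.5% of those in WT Villin crypts also had it in ESC, which is 28.1% and 42.6% of the genes with RING1B in ESC. Psmb8 and Psmb9 are neighbours on chromosome 17 with Tap1 between them. Their ESC peaks, chr17:34196546-34198815 and chr17:34186474-34188627, were separate, and each lay over the start site of its proteasome gene and within 1 kb of an end of Tap1. PCGF6 and RING1B occurred together in ESC at Psmb9 and Psmd9, which is 22.2% of the proteasome genes with PCGF6 and 50% of those with RING1B (49.8% and 63.3% over all genes).

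Other genes of the pathway were described from a list of 32 ubiquitin and proteasome factors, 31 of which were found in the gene table. PCGF6 was listed at 11 of them in KO and 21 in WT AhCre crypts (13.7% and 39.9% of all genes). Of these 21, 10 were WT-only, against 64.4% of all genes with a WT peak. The list includes Tap1, whose highest PCGF6 peak and RAD21 peak are those already counted at Psmb9. The highest WT scores were those of the shuttle factor gene Ubqln4 (17.2 in KO, 71.2 in WT), Nfe2l1 (19.2 and 58.8), which encodes the transcription factor that raises proteasome gene expression when the proteasome is inhibited, the deglycosylase gene Ngly1 (33.6 and 57.0), which acts on that factor, the ubiquitin fusion gene Rps27a (11.9 and 54.5) and Ubqln1 (11.9 and 52.7). At Nfe2l2, which encodes a stress-responsive relative of NFE2L1, the KO score was the higher (42.3 in KO, 33.8 in WT). RING1B was listed in WT and not in KO Villin crypts at the proteasome-bound deubiquitinase gene Uchl5 (12.5) and at Nfe2l2 (10.3). No list member had RING1B in AhCre crypts. H2AK119ub1 was listed at Ubqln2 in KO AhCre crypts (13.7) and in both genotypes of Villin crypts (14.7 in KO, 10.5 in WT), and at the peptide transporter gene Tap2 in WT AhCre crypts (15.8). RAD21 was listed at 6 list members in KO and 11 in WT Villin crypts (14% and 22.2% of all genes). Of these 11, 5 were WT-only, against 41.1% of all genes with a WT peak. Among them was Adrm1 (41.1), a ubiquitin receptor of the proteasome, whose CTCF scores were 333 in KO and 366 in WT.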

How the data were processed

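The authors deposited 1 peak list for each of 16 ChIP libraries. Inputs (6 samples) were not analysed here. Per the labels, input chromatin served for peak calling, and 5% Drosophila S2 chromatin was added to the H2AK119ub1 samples. No spike count was used here. Per the submitters' processing notes, Bowtie 1.2.2 and 1.1.2 and MACS2 2.1.1 were used, and the builds mm10, dm6 and hg38 are named without roles. Their settings are not given in the sources used. The deposited scores are −log10 values, of p or q, per peak. A deep or efficient library passes the threshold of 10 at more sites, so counts of peaks between libraries depend on depth, which the lists do not hold.

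Description lines of the ESC samples exchange PCGF6 and RING1B, and the titles and antibody tags were followed. BED starts were converted to 1-based positions on mm10. Gene spans and start sites came from RefSeq (GRCm38.p6). Promoter windows were found for 41 of the 49 genes and not for Psma8, Psmb1, Psmb2, Psmb7, Psmc3, Psmd3, Psmd7 and Psmg2. All proteasome genes could be named. Full values went to the 10 with the highest WT PCGF6 scores, to those with RING1B or H2AK119ub1 in crypts and to those with a WT-only or KO-only CTCF or RAD21 peak. In the pathway list they went to the 5 highest WT PCGF6 scores and to genes with RING1B or H2AK119ub1 in crypts, of which 1 is not reported here. Adrm1 and the inner peaks were singled out after their values were seen. The members, lists and rules were chosen with earlier results of these data known. No test was made.

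Gene counts were checked against bedtools 2.31.1 in 16 lists and differed in 0. Planted losses and gains were misjudged at 0 of 21887 genes. Alternatives changed the window, the score minimum, the gene end, the overlap and the list length. Python 3.11.15, numpy 2.4.6, pandas 2.3.3 and matplotlib 3.10.9 were used.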

Additional observations from a re-analysis of the deposited data

How the results depend on the processing

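Of 190 alternative values for 42 counts, 132 were within 1.5 times the reported count, including counts of 0 that stayed 0, and 58 were not. The causes were not tested. No paired analysis was possible because every group had 1 library. A window of 500 bp, an overlap of 0.5 of the peak and overlapping peaks in place of peaks at 1 gene moved no count by more than 1.5 times. The overlap of 0.5 could change only the KO-only count of AhCre H2AK119ub1. No other comparison had a proteasome gene whose peak overlapped one outside the window. Shares over all genes were computed with scores of 20 or more for genes with a peak, and not for WT-only genes. In lists of equal length, counts over all genes were made for WT-only and KO-only genes, not between crypts and ESC. With other windows, with start sites only or without the overlap condition they were not made. Those counts therefore have no background here. Counts are given as KO then WT where both moved. With scores of 20 or more, PCGF6 genes numbered 4 and 18 in AhCre crypts (4.40% and 21.5% of all genes) with 14 WT-only, CTCF 11 in KO (19.7% of all genes) with 3 WT-only, RAD21 2 and 2 (8.11% and 11.3%) with 0 WT-only, PCGF6 5 (10.5%) and RING1B 2 (12.9%) in ESC, and RING1B, its Villin WT-only genes and H2AK119ub1 0 in crypts. With a window of 5000 bp, the counts were 2 and 3 (RING1B, AhCre), 8 and 6 (H2AK119ub1, AhCre), 4 and 6 (RING1B, Villin), 4 and 3 (H2AK119ub1, Villin), 35 and 34 (CTCF), 19 and 24 (RAD21) and 9 (RING1B, ESC). WT-only genes then numbered 1 for AhCre RING1B, AhCre H2AK119ub1 and CTCF, and KO-only genes 3 (AhCre H2AK119ub1), 1 (Villin RING1B and H2AK119ub1) and 2 (CTCF and RAD21). With a window of 0 bp, WT RING1B in both lines, Villin WT-only RING1B and KO AhCre H2AK119ub1 with its KO-only count came to 0, KO CTCF to 11 and WT-only RAD21 to 5. With start sites only, KO counts were 1 (AhCre H2AK119ub1), 2 (Villin RING1B) and 11 (CTCF). Without the overlap condition 2 genes were KO-only for AhCre H2AK119ub1. With lists of equal length, WT-only and KO-only genes were 3 and 5 for PCGF6 and 5 and 2 for RAD21. For AhCre RING1B 1 was KO-only, through the order of tied scores, and for Villin RING1B 0 were WT-only. In such lists 15 genes had PCGF6 in crypts and not in ESC, and 1 and 2 had RING1B in ESC and not in AhCre or Villin WT crypts. The lists give no read counts, so a gene without a peak may be one that the library was too shallow to call, and scores near 10 are closest to that limit.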

Other observations

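Peaks inside the proteasome genes, more than 1 kb from either end, were mainly those of CTCF and RAD21. CTCF lay inside the same 8 genes in both genotypes of Villin crypts (34.1% of all genes in each). The strongest were at Psma2 (217 in KO, 206 in WT), Psmd9 (167 and 143) and Psme4 (106 and 107), a gene with no peak near its ends in any list. RAD21 lay inside 5 genes in KO and 4 in WT (22.5% and 23.7% of all genes). At Psma2 (19.9) and at chr2:38597861-38598280 in Psmb7 (22.4) an inner RAD21 peak was in WT only. At Psmd9 (30.1) and Psmg1 (10.8) such a peak was in KO only. Each lay over a CTCF peak present in both genotypes, and another inner RAD21 peak of Psmb7 was listed in both genotypes. At Psme4 RAD21 had scores of 47.7 in KO and 43.2 in WT. Inside Psmf1, the gene of a proteasome inhibitor, RING1B was listed in KO Villin crypts (chr2:151740892-151741538, score 12.5), where WT AhCre crypts had PCGF6 (13.4). Both of these peaks covered the listed start site of Psmf1.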
